A study of Mus musculus with 3 samples.

Results

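Droplets that passed a hepatocyte gate but held almost no mitochondrial RNA were described in 3 single-cell libraries of mouse liver. A barcode was counted as such a droplet, called poor below, when under 1% of its UMIs (unique molecular identifiers, 1 per captured RNA molecule) came from genes whose symbols start with mt-, at least 20 UMIs came from Alb, Apob and Cps1 together, and none came from the 10 genes Ptprc, Cd3e, Cd3d, Trac, Nkg7, Cd79a, Lyz2, Ptprb, Krt19 and Col3a1, which mark other liver cells. The members were 11281 of the 36990 barcodes. Each library was 1 condition and pooled 2 mice, hepatocytes and nonparenchymal cells mixed in equal parts after collagenase perfusion. All 6 mice were wild-type male C57BL/6 animals that were 8 weeks old at the start. The control mice received no treatment, the high-fat diet mice received a diet (HFD) in which fat supplied 60% of the calories over 4 months, and the CCl4 mice received chow for 3 months and then 0.1 mL of 10% CCl4 (carbon tetrachloride, a liver toxin) by intraperitoneal injection 2 times a week for 4 weeks. The files held 11245, 12984 and 12761 barcodes with 49613255, 34985786 and 34061186 UMIs in the control, HFD and CCl4 library, the order in which values are given throughout. The control and HFD libraries shared 36 barcodes, the control and CCl4 libraries 49, and the HFD and CCl4 libraries 52. Of these, 3, 4 and 3 were poor droplets in both libraries.

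The 13 protein-coding genes of the mitochondrial genome are transcribed inside the organelle, and hepatocytes, which carry many mitochondria, usually yield abundant transcripts of them. Malat1 and Neat1 are long noncoding RNAs that stay in the nucleus, so they mark droplets that hold nuclear RNA, whereas messenger RNAs of secreted and membrane proteins are translated at the endoplasmic reticulum and those of cytosolic proteins such as Fabp1 on free ribosomes. When cells break during dissociation, their RNA enters the suspension and every droplet takes up some of it, which gives other cell types low counts of abundant hepatocyte genes.

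Further groups of barcodes were read beside the poor droplets. Rich droplets met the same limits on the other genes but held 3 to 30% mitochondrial UMIs (1077, 768 and 2341 barcodes in the control, HFD and CCl4 libraries). T cells were barcodes with at least 2 UMIs in Cd3d, Cd3e and Trac, which encode chains of the T cell receptor complex (1691, 1171 and 932 barcodes), and served to show how much hepatocyte RNA a droplet without a hepatocyte held. Levels are given as CPM, UMIs summed over a group's barcodes per 1000000 UMIs outside mt- genes. With 1 library per condition no test was made. Intervals are exact 95% intervals for counting error only, and barcodes of a library are not replicates. The limits fix the mitochondrial share, the floor of Alb, Apob and Cps1 and the zero counts of the 10 genes, so those values describe how the droplets were chosen.

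Poor droplets made up 1854 of 11245 barcodes of the control library (16.5%, 15.8 to 17.2), 5183 of 12984 of the HFD library (39.9%, 39.1 to 40.8) and 4244 of 12761 of the CCl4 library (33.3%, 32.4 to 34.1). Among barcodes that met the limits on the other genes they were 56.2%, 74.7% and 48.9%. Their median mitochondrial share was 0.297%, 0.434% and 0.526%, against 1.47%, 0.920% and 0.928% in T cells. mt-Nd1, a subunit of respiratory complex I, was at 524, 940 and 845 CPM in poor droplets, at 17175, 16557 and 12350 CPM in rich droplets, and at 3007, 2103 and 2076 CPM in T cells. No limit on mitochondrial RNA was set for T cells, and 20.5%, 57.0% and 56.2% of them also lay under 1%. A difference in the share of poor droplets between libraries cannot be told apart from a difference between mice or preparations.

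The poor droplets were shallow in the HFD and CCl4 libraries. Their median was 4224 UMIs in the control library, 2223 in HFD and 2052.5 with CCl4, against 8212, 3543 and 3079 in rich droplets and 2528, 2313 and 2101 in T cells. No barcode of the deposited files held fewer than 1629, 1827 or 1671 UMIs, and 16.1%, 79.1% and 76.5% of the poor droplets lay within 1.5 times that lowest value. In the control library the poor droplets therefore stood well above the lowest barcodes, whereas in the other libraries most of them lay near it.

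**Figure D1:**
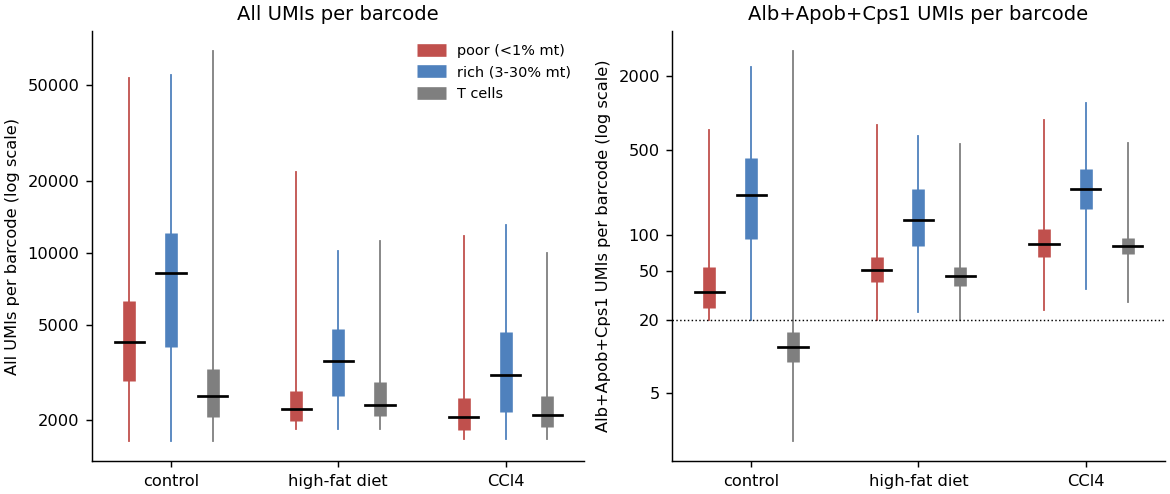
UMIs per barcode (left) and UMIs in Alb, Apob and Cps1 per barcode (right), both on log axes, for poor droplets, rich droplets and T cells of each library. Thin lines run from the lowest to the highest barcode, thick bars from the first to the third quartile, black ticks mark medians, and the dotted line marks the limit of 20 UMIs. Medians of the right panel were 34, 51 and 84 in poor droplets, and 12, 46 and 80 in T cells.

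The label of these droplets as hepatocytes was checked against Alb (serum albumin), Apob (the core protein of secreted lipoproteins) and Malat1. Alb, Apob and Cps1, the mitochondrial enzyme that opens the urea cycle, together gave a median of 34, 51 and 84 UMIs per poor droplet. T cells held a median of 12, 46 and 80. The limit of 20 UMIs was reached by 227 of 1691 T cells of the control library (13.4%, 11.8 to 15.1). All 1171 and 932 T cells of the other libraries reached it, so there it did not separate poor droplets from T cells. Alb stood at 8505, 20746 and 38986 CPM in poor droplets, at 30060, 42868 and 70842 CPM in rich droplets and at 5627, 17307 and 35968 CPM in T cells. Apob stood at 515, 841 and 822 CPM in poor droplets, at 2882, 1851 and 2560 CPM in rich droplets and at 543, 741 and 709 CPM in T cells. The Alb level of poor droplets over that of T cells was 1.51 (1.49 to 1.53), 1.20 (1.19 to 1.21) and 1.08 (1.08 to 1.09). The Apob level of poor droplets over that of T cells was 0.949 (0.906 to 0.994) in the control library, 1.13 (1.08 to 1.19) in HFD and 1.16 (1.10 to 1.23) with CCl4. These ratios of pooled levels include any T cell barcode that also held a hepatocyte. The median Alb share of UMIs was 0.801%, 2.04% and 3.92% in poor droplets and 0.390%, 1.75% and 3.57% in T cells. The data go in part against the label. That the markers were present was set by the limit of 20 UMIs, yet Apob was close to its level in T cells in all 3 libraries. Alb was close to it in 2, and its ratio in the control library sets chosen droplets against T cells of which 13.4% reached the limit. The droplets are therefore called by their rule.

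Fabp1 and the other members of a 20-gene hepatocyte list stood above the T cells, whereas long hepatocyte genes, in CPM, did not in the control and HFD libraries once the genes that chose the droplets were left out. Fabp1, the liver fatty acid-binding protein of the cytosol, reached 32426, 67771 and 30211 CPM in poor droplets, 11475, 32548 and 14695 CPM in rich droplets and 7181, 34046 and 18744 CPM in T cells. Poor droplets exceeded rich droplets 2.83-fold (2.81 to 2.85), 2.08-fold (2.07 to 2.10) and 2.06-fold (2.04 to 2.07), and T cells 4.52-fold (4.47 to 4.56), 1.99-fold (1.98 to 2.00) and 1.61-fold (1.60 to 1.63). Per barcode, poor droplets held 167, 167 and 68.6 Fabp1 UMIs and T cells 22.6, 88.8 and 43.3. The 20 hepatocyte genes together gave 401, 238 and 328 UMIs per poor droplet and 90.5, 172 and 254 per T cell, but they include Alb, Apob and Cps1, whose floor few control T cells reached. The other 17 summed to 68481, 74112 and 102094 CPM in poor droplets and to 22255, 47113 and 71808 CPM in T cells, a ratio of 3.08, 1.57 and 1.42, and all 17 were above T cells in each library. Long hepatocyte genes summed to 3668, 6143 and 8149 CPM in poor droplets and to 4923, 5917 and 6558 CPM in T cells, with Apob and Cps1 among them. Without these, the 75 others summed to 2743, 4239 and 4914 CPM in poor droplets and to 4068, 4334 and 4190 CPM in T cells, lower in the control library, slightly lower in HFD and higher with CCl4. Per barcode that was 14.1, 10.4 and 11.2 UMIs in poor droplets and 12.8, 11.3 and 9.68 in T cells. Between libraries the T cell sum of these 75 genes changed little, whereas that of the 17 genes rose from 22255 to 71808 CPM. Whether T cells express some of the long genes themselves was not tested. The sum of these genes is not read here as a measure of free hepatocyte RNA.

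The make-up of this hepatocyte RNA can be compared without regard to its amount, since RNA from a single source keeps its genes in a fixed ratio in every cell type. Each gene's share of the 20-gene list was computed, and the distance between groups was taken as the percentage points that would have to move to turn the shares of a group into those of the other. Poor droplets lay 19.2, 7.31 and 7.40 points from T cells in the control, HFD and CCl4 libraries, and 36.9, 22.1 and 24.5 points from rich droplets. Rich droplets lay 18.0, 15.1 and 17.6 points from T cells. Without Alb, Apob and Cps1, poor droplets lay 16.8, 5.38 and 5.05 points from T cells and rich droplets 18.9, 12.9 and 15.2. In HFD and with CCl4 the poor droplets were thus nearer to the T cells than the rich droplets were under both lists, while in the control library the order turned when these 3 genes were left out. Alb made up 10.9%, 21.4% and 27.0% of the list in poor droplets, 19.6%, 26.2% and 32.7% in T cells and 27.0%, 34.9% and 42.6% in rich droplets. Apoa2, a small apolipoprotein of high-density lipoprotein, ran the other way, with 30.3%, 31.9% and 24.8% in poor droplets, 19.6%, 27.3% and 21.04% in T cells and 11.8%, 19.9% and 14.0% in rich droplets. In both genes T cells lay between the poor and the rich droplets in all 3 libraries.

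Malat1 and Neat1 were scarce in most poor droplets. Malat1 (chromosome 19, 5795690 to 5802672 on the minus strand of GRCm38) stood at 946 (927 to 966), 1987 (1963 to 2012) and 9167 (9107 to 9228) CPM in poor droplets. It stood at 3024 (2988 to 3061), 2655 (2595 to 2716) and 5581 (5530 to 5633) CPM in rich droplets and at 20885, 9476 and 8881 CPM in T cells. The level in poor droplets was thus 0.313 (0.305 to 0.320) of that in rich droplets in the control library, 0.748 (0.729 to 0.768) in HFD and 1.64 (1.62 to 1.66) with CCl4, below 1 in the first 2 libraries and above 1 in the third. Without the limit on genes of other cell types, the ratio was 0.894 in the control library, nearer to 1, and 1.64 in HFD, above 1 as with CCl4, where it was 1.69. Neat1 (chromosome 19, 5824708 to 5845478, minus strand), which builds nuclear paraspeckles, was lower in poor droplets of all 3 libraries, at 122, 211 and 678 CPM against 829, 853 and 1013 CPM. These ratios were 0.147 (0.138 to 0.157), 0.247 (0.234 to 0.262) and 0.669 (0.648 to 0.691). Of a list of 30 nuclear-retained RNAs, 16 passed the minimum level in all libraries, and no member was at least 2 times higher or lower in all 3. Of all genes that passed it, 5.18% were higher and 8.18% lower, so few of 16 would be called at that share. The median ratio of the list was 0.50, 0.61 and 0.87 and that of all genes 0.86, 0.86 and 0.85, so with CCl4 the list lay near all genes.

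The summed Malat1 level hides a split among the droplets. The median poor droplet had 0.0195%, 0% and 0.0954% of its UMIs outside mt- genes in Malat1, against 0.205%, 0.169% and 0.360% in rich droplets and 2.22%, 0.879% and 0.768% in T cells. No Malat1 UMI at all was found in 690 poor droplets of the control library (37.2%), 2936 of the HFD library (56.6%) and 1003 of the CCl4 library (23.6%). After each barcode had been thinned to 1000 UMIs outside mt- genes, which left out no barcode, the shares without Malat1 were 75.1%, 73.5% and 40.4% in poor droplets, 22.7%, 24.6% and 17.3% in rich droplets and 0.237%, 1.54% and 2.25% in T cells. At equal depth poor droplets thus lacked Malat1 more often than rich droplets in every library, with CCl4 as well. The other end held few droplets with much Malat1: 29 poor droplets of the control library (1.56%, 1.05 to 2.24), 230 of the HFD library (4.44%, 3.89 to 5.03) and 653 of the CCl4 library (15.4%, 14.3 to 16.5) had at least 1%, and 17, 269 and 390 lay between 0.5 and 2%. Among rich droplets 5.01% (3.79 to 6.49), 5.60% (4.08 to 7.47) and 20.6% (19.0 to 22.3) had at least 1%. At a limit of 2% the shares were 1.19% (0.745 to 1.79), 2.12% (1.75 to 2.55) and 11.4% (10.4 to 12.4) of poor droplets against 1.58% (0.922 to 2.52), 0.781% (0.287 to 1.69) and 5.85% (4.94 to 6.88) of rich droplets, so that the order had turned in HFD and with CCl4, with intervals apart. At 3% poor droplets had the higher share in each library: 1.08% (0.660 to 1.66), 1.35% (1.05 to 1.70) and 9.61% (8.74 to 10.5) of poor droplets against 0.836% (0.383 to 1.58), 0.391% (0.0806 to 1.14) and 1.965% (1.44 to 2.61) of rich droplets, with intervals that were apart with CCl4 only. The poor droplets under 1%, which Malat1 itself chose, had Malat1 at 289, 517 and 1284 CPM, and the rich droplets under 1% at 2626, 2166 and 3206 CPM. The highest single poor droplets reached 14.5%, 9.58% and 16.3%.

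**Figure D2:**
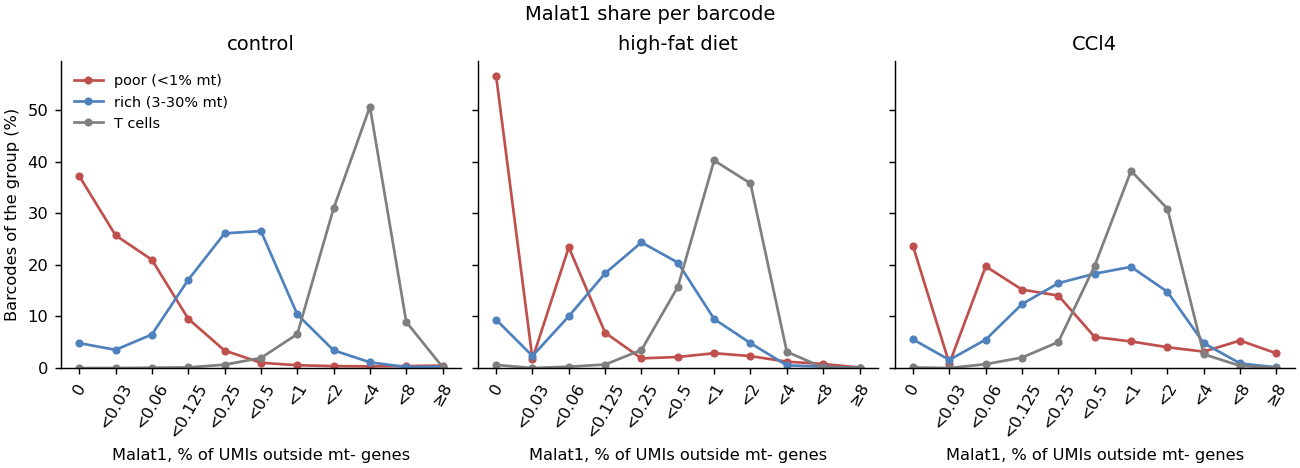
Share of barcodes (vertical axis, percent of the group) by Malat1 share of their UMIs outside mt- genes (horizontal axis, bins with their upper ends) in poor droplets, rich droplets and T cells of each library. Most poor droplets sit at or near 0, most T cells between 0.5 and 4%, and poor droplets with over 2% are most visible with CCl4.

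Poor droplets with at least 1% Malat1 also carried other nuclear RNAs. The limit of 1% was chosen after the data had been seen, and Malat1 itself set it. Neat1 stood at 8773, 2999 and 3943 CPM in these droplets (975, 2148 and 6204 UMIs) and at 20.3, 45.3 and 40.6 CPM in the other poor droplets. Kcnq1ot1, a noncoding RNA that silences an imprinted cluster, stood at 459, 96.3 and 181 CPM against 0.742, 2.74 and 3.10 CPM. Chka (choline kinase alpha) stood at 5219, 181 and 988 CPM against 61.5, 13 and 31.0 CPM, and Mlxipl, a glucose-responsive transcription factor, at 747, 281 and 315 CPM against 17.6, 29.7 and 23.0 CPM. Of the 19 nuclear-retained RNAs measured other than Malat1, 14 were at least 2 times higher in all 3 libraries and none lower, where 414 of 2454 genes (16.9%) were higher and 2 (0.0815%) lower. The median ratio of the 19 was 11.6, 5.94 and 5.83, and that of all genes 0.85, 0.93 and 0.94.

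Of 32 long hepatocyte genes measured, 13 were higher in these droplets (40.6%) and none lower, beside 16.9% of all genes higher. Apob and Cps1, which helped to choose the droplets, were among the 32 and were neither higher nor lower. The whole list of 77 long genes, Apob and Cps1 included, summed to 14694, 10221 and 13342 CPM in these droplets. Rich droplets held 12788, 13673 and 17583 CPM of it, more in HFD and with CCl4. The other poor droplets held 3538, 5900 and 7135 CPM. Zbtb20, a repressor that the liver expresses strongly, stood at 3194, 699 and 1065 CPM against 199, 190 and 121 CPM in the other poor droplets. Lpin2, a phosphatidate phosphatase, stood at 1035, 625 and 470 CPM against 63.1, 82.9 and 82.5 CPM, and Abcc2, the canalicular export pump, at 432, 498 and 711 CPM against 22.1, 97.0 and 74.5 CPM. Nuclear-encoded genes of the respiratory chain had none of 62 measured members higher or lower in all 3 libraries, at a median ratio of 0.46, 0.52 and 0.61. The 20-gene hepatocyte list summed to 46556, 63475 and 106899 CPM in these droplets and to 28737, 66004 and 110144 CPM in T cells, so that in HFD and with CCl4 it lay slightly below the level of T cells. Without Alb, Apob and Cps1 the 17 other genes summed to 38475, 45431 and 74102 CPM against 22255, 47113 and 71808 CPM in T cells, and with CCl4 they lay slightly above.

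Some of these Malat1-rich droplets held RNA of other cells. In HFD, B and plasma cell genes summed to 80455 CPM in them, of which Igkc, the antibody kappa chain, gave 72375. Spp1 (osteopontin), a cholangiocyte marker, was at 3313 CPM there and at 1250 CPM with CCl4. Antibody or haemoglobin genes took at least 1% of the UMIs in 1, 40 and 35 of the Malat1-rich droplets. Without all such droplets, 18 of 20 nuclear-retained RNAs and 15 of 33 long genes were higher, where 520 of 2530 genes were. Malat1, which set the split, counts among the 18 and the 20, unlike in the count of 14 of 19 above. The 33 long genes include Apob and Cps1, which helped to choose the droplets. In the control library, B and plasma cell genes summed to 594 CPM in the Malat1-rich droplets and 24.1 CPM in the other poor droplets. Erythroid genes summed to 11238, 688 and 2180 CPM in the Malat1-rich droplets and to 3022, 3314 and 4507 CPM in the other poor droplets of the 3 libraries. In the control library 1 droplet gave 97.1% of these UMIs, and without the droplets rich in haemoglobin or antibody RNA the levels were 349, 163 and 135 CPM against 181, 219 and 131 CPM. Haemoglobin genes helped to set which droplets were left out, so the fall in these levels follows from that choice. In HFD, stellate cell and fibroblast genes summed to 255 and 8.21 CPM, T and NK cell genes to 306 and 62.1 CPM, and granulocyte and monocyte genes to 1291 and 585 CPM. With CCl4, B and plasma cell genes summed to 6412 and 919 CPM and T and NK cell genes to 308 and 179 CPM. Kupffer cell genes gave 1, 14 and 16 UMIs in the Malat1-rich droplets, the first below the floor of 3 counts. The part of these cells in the nuclear RNA was not tested beyond leaving out the droplets rich in antibody or haemoglobin RNA.

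Across the genes measured, respiratory chain, ribosomal and other short messenger RNAs stood higher in poor than in rich droplets more often than long ones did, and several long messenger RNAs of secreted and membrane proteins stood lower. A gene was counted as higher when its level plus 5 CPM was at least 2 times that in rich droplets in each of the 3 libraries, and as lower when it was at most 0.5 times, among genes with at least 50 CPM in poor or rich droplets of every library. By this rule 124 of 2395 genes were higher (5.18%) and 196 lower (8.18%). The median ratio over all 2395 genes was 0.86, 0.86 and 0.85, and the split depended on the scaling: with levels per all UMIs 185 genes were higher and 139 lower, and without the 20 most abundant genes in the total 208 were higher and 160 lower. The median ratio of all genes then lay at 0.95, 0.92 and 0.91, and at 0.91, 0.89 and 0.88. Without the CCl4 library 206 genes were higher and 326 lower.

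Among the 12 higher genes with the largest ratios, the haemoglobin chains came first. Hbb-bs, the main adult beta chain, stood at 1686, 1741 and 2288 CPM in poor droplets and at 223, 149 and 138 CPM in rich droplets. Haemoglobin RNA sat in few droplets, however. The median poor droplet had 0%, and the 48, 211 and 174 droplets with at least 1% held 96.5%, 95.3% and 98.1% of all haemoglobin UMIs of the poor droplets, with up to 68.1% in a single droplet. Leaving out droplets rich in haemoglobin or antibody RNA lowers Hbb-bs by that choice itself, since haemoglobin genes helped to make it. Without those droplets, Hbb-bs stood at 54.9, 80 and 42.0 CPM in poor droplets and at 83.6, 130 and 67.8 CPM in rich droplets, below them in all 3 libraries. Antibody genes behaved likewise in HFD, where 57 droplets held 94.7% of the antibody UMIs. Those droplets, 48, 268 and 197 of the poor droplets in all (2.59%, 5.17% and 4.64%), passed the limits on the 10 genes of other cell types. The counts over genes were 130 higher and 193 lower without them.

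The other leading genes encode small proteins of ribosomes, mitochondria and the nucleus. Rpl21, of the large ribosomal subunit, stood at 695, 578 and 429 CPM in poor droplets and at 132, 134 and 122 CPM in rich droplets, 5.26-fold (4.94 to 5.61), 4.33-fold (3.90 to 4.82) and 3.5-fold (3.27 to 3.76) higher. Reads of Rpl21 can be shared with its processed pseudogenes, so its level is uncertain. U2af1, a subunit of the splicing factor that recognizes 3′ splice sites, was 4.94-fold (4.41 to 5.54), 3.62-fold (3.00 to 4.41) and 3.14-fold (2.83 to 3.51) higher. H2bc4, a histone H2B gene, stood at 459, 388 and 650 CPM against 104, 111 and 211 CPM. Bola1 (a mitochondrial iron-sulfur protein), Mrps34 (mitochondrial ribosome), Rnaseh2c (ribonuclease H2) and Ndufab1, the acyl carrier protein of complex I, were 2.65- to 4.83-fold higher. Each of these genes was higher in all 3 libraries.

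Among the 12 lower genes were several whose proteins are made at the endoplasmic reticulum. Fn1 (fibronectin) stood at 347, 398 and 474 CPM in poor droplets, at 2001, 1216 and 1534 CPM in rich droplets and at 301, 355 and 350 CPM in T cells, a ratio of poor to rich of 0.174 (0.167 to 0.180), 0.327 (0.313 to 0.342) and 0.309 (0.298 to 0.319). Abca1, the cholesterol exporter, stood at 93.4, 84.3 and 96.7 CPM against 630, 302 and 319 CPM in rich droplets and 98.2, 83.1 and 74.8 CPM in T cells. Tpp1, a lysosomal protease, was at 28.4, 46.2 and 63.9 CPM against 213, 211 and 277 CPM. Atp2a2 (the calcium pump of the endoplasmic reticulum), Stt3a (oligosaccharyltransferase), Slc4a4 (a bicarbonate transporter), F5 (coagulation factor V) and Crp (C-reactive protein) lay between 0.165 and 0.343 of the level in rich droplets. For Fn1 and Abca1 the level in poor droplets was 0.951 to 1.35 times that in T cells. Others lay further away in the control library, where Tpp1, Stt3a and Atp2a2 were at 0.451, 0.488 and 0.549 times the level in T cells. There Slc4a4 and Crp were at 1.52 and 1.57 times that level.

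The gene lists differed from each other in the same comparison, and their counts stand beside 5.18% of all genes higher and 8.18% lower. Of 62 nuclear-encoded respiratory chain genes, 14 were higher and none lower, at a median ratio of 2.39, 1.88 and 1.79. Cox8a, of cytochrome c oxidase, stood at 1698, 1670 and 1995 CPM in poor droplets, at 747, 874 and 1157 CPM in rich droplets and at 870, 1173 and 1556 CPM in T cells, and Ndufa4 at 3008, 4499 and 5277 CPM against 1554, 2732 and 3149 CPM in rich droplets. These nuclear messages of the respiratory chain were thus not low in droplets chosen for little RNA from the mitochondrial genome. The list summed to 228, 115 and 113 UMIs per poor droplet, 161, 99.2 and 102 per rich droplet and 57.4, 77.9 and 84.1 per T cell. Of 81 ribosomal protein genes, taken by symbol, 10 were higher and none lower (medians 1.64, 1.91 and 1.92). Of 40 cytosolic metabolic enzymes, only Fabp1 passed the limit, and the medians of 1.27, 1.04 and 0.97 lay near 1. Ftl1 and Fth1, the ferritin chains that store iron, stood 3.24-, 2.89- and 1.91-fold and 1.81-, 1.74- and 1.69-fold above rich droplets.

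Enzymes of the mitochondrial matrix, which are also encoded in the nucleus, did not stand high. None of the 34 measured apart from Cps1, which helped to choose the droplets, was higher or lower, at medians of 0.91, 0.83 and 0.84. The whole list summed to 46.0, 30.5 and 29.7 UMIs per poor droplet and 85.4, 57.0 and 61.6 per rich droplet. Cytochrome P450s of the endoplasmic reticulum had medians of 0.34, 0.54 and 0.61, with 3 of 21 lower (Cyp3a13, Cyp4a10 and Cyp4a14). Secreted plasma proteins other than Alb and Apob had 9 of 41 lower and none higher, at medians of 0.51, 0.65 and 0.72, but differed among themselves. The fibrinogen chain Fga stood at 3210, 2799 and 2993 CPM against 16780, 6959 and 5644 CPM in rich droplets, while Ttr (transthyretin, a carrier of thyroid hormone) stood at 12951, 13224 and 33418 CPM against 5635, 8661 and 19486 CPM. Long genes of hepatocytes other than Apob and Cps1 had 6 of 24 lower, among them Slco1b2, Egfr and Insr, at medians of 0.41, 0.49 and 0.52. Immediate early and heat-shock genes, which rise during dissociation, had none of 18 higher or lower in all 3 libraries (medians 0.39, 0.82 and 0.97), and the early gene Egr1 stood at 210, 234 and 492 CPM against 1905, 861 and 925 CPM. None of 12 pericentral genes was higher or lower (medians 0.51, 0.71 and 0.75), while 2 of 17 periportal genes other than Alb and Cps1 (0.65, 0.67 and 0.75) and 3 of 19 acute-phase and metallothionein genes (0.40, 0.58 and 0.72) were lower. Of the 17 hepatocyte genes that did not choose the droplets, Ttc36 was higher and Serpina3k lower (0.61, 0.76 and 0.72). All 4 erythroid genes measured were haemoglobin genes and higher (6.53, 10.5 and 14.5), and none of 6 cholangiocyte genes was higher or lower (0.82, 1.36 and 1.39). No gene of the lists for Kupffer, endothelial, stellate, B and plasma, T and NK cells or granulocytes passed the minimum level, nor did the 2 matched genes that overlap ribosomal RNA.

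**Figure D3:**
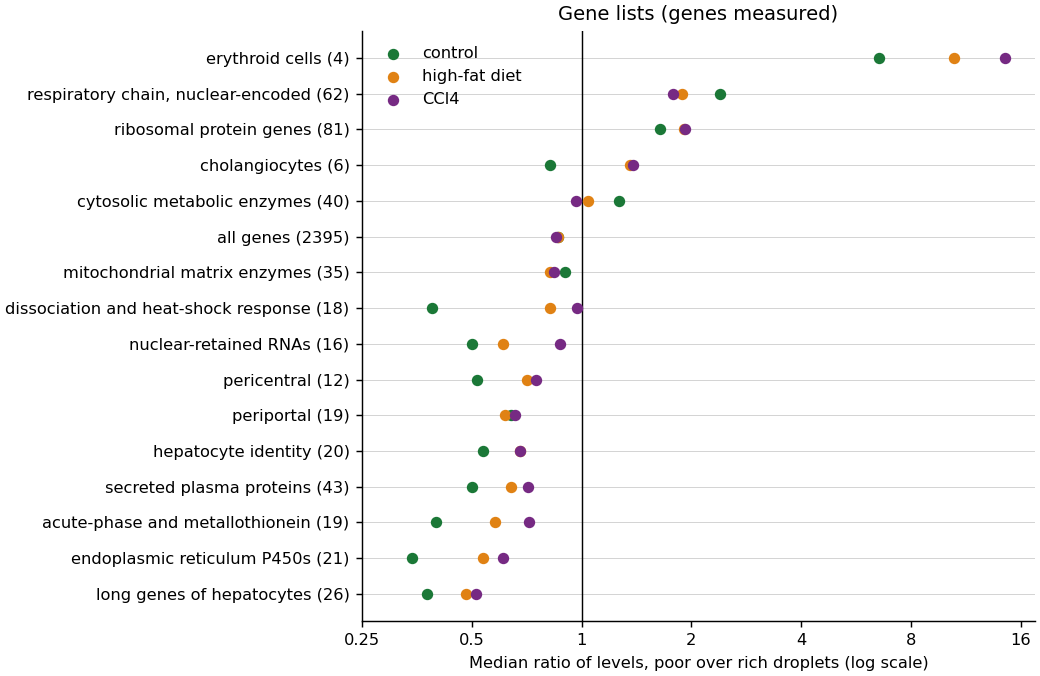
Median ratio of levels in poor over rich droplets (horizontal axis, log scale) for each gene list with at least 4 measured genes and for all genes, 1 point per library, with the number of genes measured in brackets. Respiratory chain genes lie at 1.79 to 2.39, all genes at 0.85 to 0.86, and long hepatocyte genes at 0.38 to 0.51, with Alb, Apob and Cps1 kept in the lists that hold them.

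The length of the transcript went along with these ratios. In the GENCODE M21 annotation of GRCm38, 2394 of the 2395 genes had a length, and the longest annotated transcript was taken. Genes with transcripts under 1000 bases had a median ratio of 2.27, 1.86 and 1.81, and 57 of 246 were higher (23.2%) and none lower. Genes with transcripts of 6000 bases or more had a median ratio of 0.46, 0.58 and 0.61, and 1 of 248 was higher (0.403%) and 46 lower (18.5%). Over all genes, which are not independent, Spearman's rho between transcript length and ratio was -0.586, -0.596 and -0.608, and that for the length of the gene with its introns -0.511, -0.519 and -0.541. The part of length itself in the ratio was not tested.

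**Figure D4:**
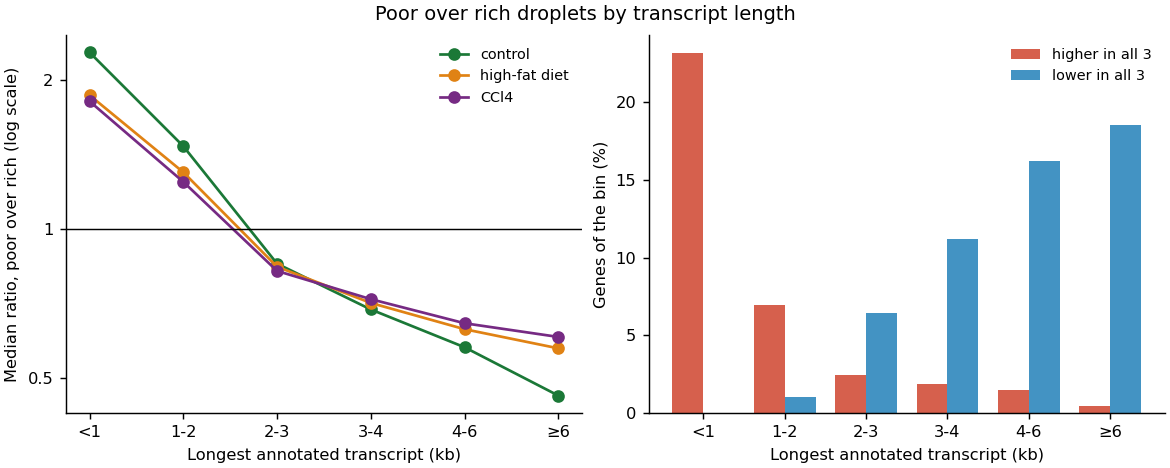
Left, the median ratio of levels in poor over rich droplets (log scale) by length of the longest annotated transcript, 1 line per library. Right, the share of genes in each length bin that were higher or lower in all 3 libraries, where 23.2% of the shortest were higher and 18.5% of the longest lower.

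The gene lists that divide the liver lobule opposed each other less among poor droplets than among rich droplets. Hepatocytes near the central vein express Cyp2e1 and Glul (glutamine synthetase), and those near the portal vein express Cyp2f2 and enzymes of the urea cycle. Over barcodes thinned to 1000 UMIs, the summed pericentral and periportal lists had a Spearman's rho of -0.739, -0.811 and -0.355 in rich droplets (n = 1077, 768 and 2341). In poor droplets rho was -0.0584, 0.176 and 0.0390 (n = 1854, 5183 and 4244), and in T cells 0.221, 0.272 and 0.111. These are descriptions over barcodes that share a library and its free RNA. The periportal list held Alb and Cps1, which chose the droplets and gave 53.4%, 67.4% and 71.1% of its thinned UMIs in poor droplets and 72.3%, 76.6% and 77.9% in rich droplets. Without them rho was -0.575, -0.755 and -0.244 in rich droplets, -0.149, -0.148 and -0.0107 in poor droplets and 0.159, 0.156 and 0.100 in T cells, so that the sign in poor droplets turned in HFD and, near 0, with CCl4. In both forms rho was nearer to 0 in poor than in rich droplets of each library. The median poor droplet held 3, 10 and 3 thinned UMIs of the pericentral list against 3, 9 and 3 in rich droplets, and 8, 11 and 17 of the periportal list without Alb and Cps1 against 11, 14 and 23.

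The spread of single genes was then measured. The Fano factor, the variance over the mean of the thinned counts, is 1 for counts that differ by sampling alone. For Glul it was 3.78, 1.16 and 3.08 in poor droplets, 5.67, 7.53 and 9.12 in rich droplets and 1.08, 1.04 and 1.49 in T cells. For Cyp2e1 it was 1.90, 1.43 and 1.26 in poor droplets, 3.47, 3.76 and 3.05 in rich droplets and 1.09, 1.03 and 1.06 in T cells. For Alb it was 3.94, 3.25 and 4.79 against 7.90, 12.0 and 9.31 in rich droplets. Some genes varied more among poor droplets. Malat1 had a Fano factor of 60.2, 30.1 and 54.9 in poor droplets against 13.1, 6.53 and 11.55 in rich droplets, Neat1 of 13.2, 8.26 and 6.91 against 1.97, 2.60 and 2.48, and Hba-a1 (haemoglobin alpha) of 56.9, 21.2 and 29.1 against 11.3, 2.59 and 10.1. Ttr was slightly higher too, at 2.14, 1.70 and 3.22 against 1.64, 1.53 and 3.11. Its means were also higher, at 13.1, 13.5 and 34.0 against 5.17, 8.32 and 18.7 counts. Poor droplets also detected fewer genes at 1000 UMIs, with medians of 523, 548 and 519 against 572, 587 and 568 in rich droplets and 667, 622 and 590 in T cells.

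Around the limit of 1% the levels changed gradually. Just inside it, the 156, 757 and 930 droplets with 0.75 to 1% mitochondrial UMIs had Alb at 12511, 21120 and 40095 CPM, and just outside it the 107, 411 and 604 droplets in the next 0.25 percentage points had 12635, 22387 and 43319 CPM. Malat1 stood at 2679, 3559 and 8054 CPM inside and 2825, 4465 and 7691 CPM outside. From under 0.25% to over 10% mitochondrial UMIs, Fabp1 fell from 34345 to 5742 CPM in the control library, from 72859 to 17428 CPM in HFD and from 34033 to 8631 CPM with CCl4. Alb ran the other way, from 7160 to 31247, from 20514 to 55098 and from 37068 to 87947 CPM. Malat1 did not follow a single course: with CCl4 it was at 8795 CPM under 0.25%, at 4017 CPM between 3 and 5% and at 12518 CPM over 10%, where 52.2% of the droplets had at least 1% Malat1.

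**Figure D5:**
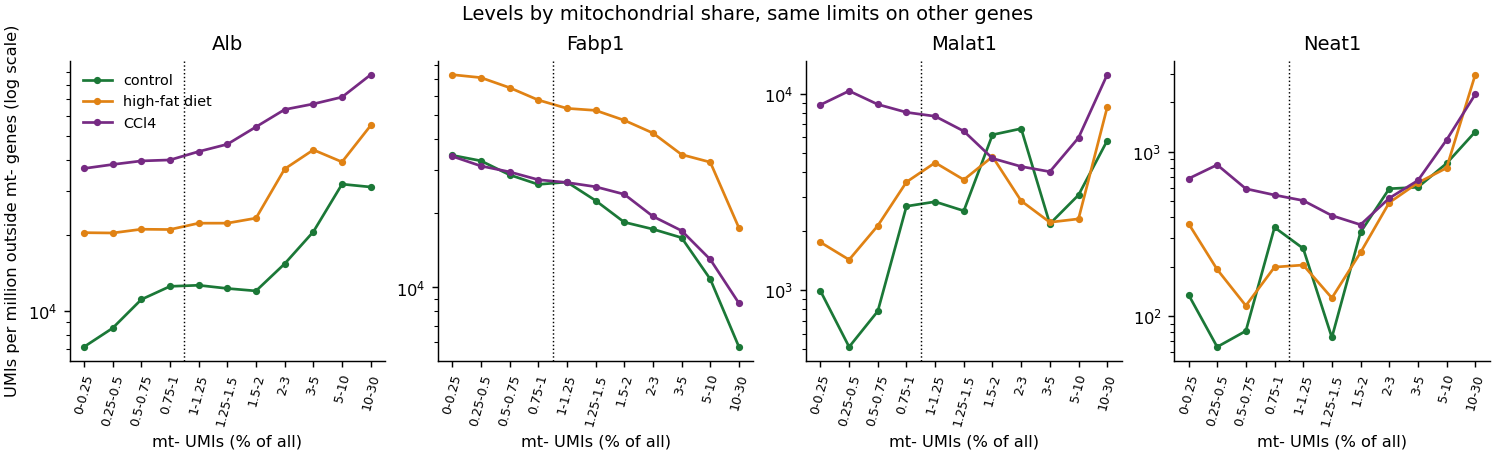
Levels of Alb, Fabp1, Malat1 and Neat1 (vertical axes, CPM outside mt- genes, log scale) in bins of the mitochondrial share of all UMIs (horizontal axis), for all barcodes that met the limits on the other genes, 1 line per library. The dotted line marks 1%, and no step is seen there in Alb or Fabp1.

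Markers of other cells were low in the poor droplets as a whole, apart from the haemoglobin and antibody RNA described above. Kupffer cell genes summed to 7.54, 26.7 and 6.75 CPM and B and plasma cell genes to 30.7, 6073 and 1817 CPM. Endothelial genes summed to 8.48, 48.6 and 31.1 CPM, stellate cell and fibroblast genes to 2.09, 22.1 and 12.8 CPM, and T and NK cell genes to 21, 75.7 and 200 CPM, the last against 11210, 7440 and 7708 CPM in T cells, and in each library Ccl5 gave most of it. Granulocyte and monocyte genes summed to 164, 625 and 194 CPM, led by S100a9 in the control and HFD libraries and by Plac8 with CCl4. Rich droplets held 3.76, 12.9 and 2.35 CPM of the Kupffer list, 9.80, 27.3 and 19.9 of the endothelial list and 2.39, 6.46 and 1.73 of the stellate list. They held 49.4, 293 and 79.2 CPM of the B and plasma cell list, 28.8, 45.6 and 34.9 of the T and NK list and 126, 155 and 29.4 of the granulocyte list. In HFD and with CCl4 each sum was thus higher in poor droplets, while the control library went both ways. Marco was at 0 in the control and CCl4 libraries, and of the stellate list Col1a1, Colec11 and Lrat were at 0 in the control library. The cholangiocyte list summed to 3690, 2211 and 2476 CPM, but its leading genes Krt18 and Ambp are also expressed by hepatocytes.

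Between conditions, the HFD and CCl4 libraries were each compared with the control library within poor droplets. The named genes lowest over control were acute-phase and metallothionein genes in HFD. With CCl4 they were genes of these kinds and Fabp5. The named genes highest over control were antibody genes in HFD, and Hamp2, antibody genes, G6pc and Rgs16 with CCl4. These are the most extreme single genes, and no count over a gene list is given between conditions. Both comparisons share the control library and have no replicates. Within poor droplets 228 of 2546 genes (8.96%) were at least 2 times higher in HFD than in the control library and 128 (5.03%) lower, and with CCl4 314 of 2567 (12.2%) were higher and 194 (7.56%) lower. Saa1, an acute-phase apolipoprotein, stood at 23476, 677 and 235 CPM in poor droplets of the control, HFD and CCl4 libraries, and Saa2 at 31008, 357 and 119 CPM. The metallothioneins Mt1 and Mt2, which bind zinc and copper, stood at 22999, 174 and 519 CPM and at 5156, 19.4 and 74.96 CPM. Lcn2 (lipocalin 2), an iron-binding protein of the acute-phase response, stood at 3434, 28.9 and 36.0 CPM. The same order was found in T cells, with Saa1 at 6434, 477 and 154 CPM and Mt1 at 4498, 114 and 261 CPM, and in rich droplets, with Saa1 at 11906, 547 and 173 CPM and Mt1 at 7428, 198 and 416 CPM. The differences in Saa1 and Mt1 thus ran the same way in all 3 kinds of barcode.

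With CCl4, Hamp2, a hepcidin gene, stood highest over control, at 3.87 CPM in the control library, 130 in HFD and 1141 with CCl4 in poor droplets, and at 1.60, 86.5 and 786 CPM in rich droplets. G6pc, the last enzyme of glucose production, stood at 24.0, 149 and 568 CPM, and Rgs16, a regulator of G protein signalling, at 5.86, 57.3 and 205 CPM. Fabp5, the epidermal fatty acid-binding protein, stood at 1010, 1598 and 13.7 CPM. In HFD all 6 highest genes were antibody genes. Igkc stood at 9.74, 5315 and 1258 CPM and Jchain at 1.15, 603 and 181 CPM. Ighg2b was not seen in the control library (0 UMIs, which allows up to 0.314 CPM) and stood at 428 CPM in HFD. That was at least 1363-fold higher, with the floor of 3 counts taken over the group. This bound includes the 57 HFD droplets that held 94.7% of the antibody UMIs, and no value of Ighg2b without them is given here. Without droplets rich in haemoglobin or antibody RNA, Igkc stood at 9.96, 264 and 87.7 CPM and Jchain at 1.07, 21.8 and 2.29 CPM. Antibody genes helped to set which droplets were left out, so lower levels follow from that choice. In T cells Igkc stood at 272, 3382 and 420 CPM. The part of plasma cells in these differences was not tested beyond leaving those droplets out.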

How the data were processed

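Libraries of 10X Genomics type were sequenced by the authors from hepatocytes and nonparenchymal cells of 2 pooled mice per condition. The deposited files held UMI counts per gene and barcode, not normalized, which the authors made with Cell Ranger 7.2.0 per the file headers. Seurat and the build GRCm39 are named in the submitters' processing notes, whereas the study's methods name mm10. How barcodes were called as cells was not given in the sources used here. Lengths and positions came from GENCODE M21 on GRCm38, which lacked 3276 of the 55357 gene identifiers, so positions may differ from those of the build used for counting.

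UMIs were summed per group and library and scaled per 1000000 UMIs outside mt- genes. Ratios in counts and medians used levels plus 5 CPM, while ratios of single genes carry no added constant. Poisson intervals (levels), Clopper-Pearson intervals (shares) and conditional binomial intervals (ratios) were exact at 95%. With 1 library per condition there was no test. Named genes were the 12 higher and 12 lower with the largest smallest ratio over the 3 libraries, the 6 highest and lowest per condition, and up to 4 members per list with the highest level, of 21 lists with 536 genes, 5 of which were not matched. Some of these are given only as ranges or counts. Thinning drew UMIs without replacement (seed 1). No doublet caller was run. Steps were tested on simulated data. Python 3.11.15, numpy 2.4.6, scipy 1.17.1, pandas 2.3.3 and matplotlib 3.10.9 were used.

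The members, lists and limits were chosen with earlier results of these data known. Alternatives covered the limits on mitochondrial and marker UMIs, other-cell genes, depth, scaling, the constant, the minimum level, the ratio, T cells and thinning. Leaving out droplets rich in haemoglobin, antibody or Malat1 RNA, leaving out 1 library or the genes that chose the droplets, the Malat1 limit and the split by transcript length were chosen after seeing the data.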

Additional observations from a re-analysis of the deposited data

Results flagged for a closer look

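The Malat1 level in poor droplets lay on opposite sides of that in rich droplets in different libraries, at a ratio of 0.313 in the control library, 0.748 in HFD and 1.64 with CCl4. With 1 library per condition this difference between libraries was not tested. The share of poor droplets with at least 1% Malat1 was 1.56%, 4.44% and 15.4%, and that of rich droplets was 5.01%, 5.60% and 20.6%, with intervals that overlapped in HFD. This order turned at higher limits. At 2% poor droplets had the higher share in HFD (2.12% against 0.781%) and with CCl4 (11.4% against 5.85%), with intervals apart, but not in the control library (1.19% against 1.58%). At 3% they had it in each library, where 1.08%, 1.35% and 9.61% of poor droplets and 0.836%, 0.391% and 1.965% of rich droplets lay, with intervals that were apart with CCl4 only.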

How the results depend on the processing

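Values are given in the order control, HFD, CCl4. Poor droplets under 0.5% mitochondrial UMIs were 12.2%, 23.7% and 15.5% of barcodes, with Malat1 at 0.269, 0.583 and 1.77 of its level in rich droplets, and those under 2% were 18.7%, 46.1% and 44.5%, with 0.402, 0.868 and 1.51. With at least 50 UMIs in Alb, Apob and Cps1 the shares were 4.70%, 21.3% and 31.2% and the Malat1 ratios 0.112, 0.605 and 1.60, and with at least 10 the control values were 25.8% and 0.390. Without the limit on genes of other cell types the shares were 21.5%, 69.9% and 51.4% and the Malat1 ratios 0.894, 1.64 and 1.69, so that in HFD the direction turned, and the cause was not tested. At 1500 to 4000 UMIs the shares were 7.67%, 38.04% and 32.3%, the ratios 0.349, 0.570 and 1.29, 220 genes were higher, and 7.06% of control T cells reached 20 marker UMIs. Without the 5% of barcodes with the most UMIs they were 15.7%, 37.9% and 31.6%, and 0.354, 0.604 and 1.55.

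Further Malat1 ratios were 0.301, 0.642 and 1.24 against droplets with 5 to 20% mitochondrial UMIs, 0.335, 0.790 and 1.74 per all UMIs, 0.341, 0.787 and 1.73 without the 20 most abundant genes, and 0.304 and 0.671 (control and HFD) without droplets rich in haemoglobin or antibody RNA. Neat1 stayed below its level in rich droplets under the alternatives run, at 0.0259 to 0.267, 0.0632 to 0.299 and 0.0557 to 0.778. Beside 124 higher and 196 lower genes, 206 were higher against droplets with 5 to 20%, 208 without the 20 most abundant genes, 206 and 326 higher and lower without the CCl4 library, 69 and 116 with 20 CPM added, 65 and 83 at a minimum of 200 CPM, and 490 and 649 at a ratio of 1.5. In Malat1-rich against other poor droplets, 572 genes were higher and 10 lower at a limit of 2% and 645 and 29 at 3%, beside 414 and 2 at 1%. Of 501 list medians recomputed, 496 moved by less than 1.5 times and 5 by more. Not thinned, rho of the lobule lists was -0.809, -0.837 and -0.407 in rich droplets and 0.236 in poor droplets of HFD. Thinned and without Alb and Cps1, it was -0.575, -0.755 and -0.244 in rich droplets. In poor droplets it was then -0.149, -0.148 and -0.0107, where the direction turned in HFD and with CCl4. No paired analysis was possible because each condition was 1 library. Single libraries and shallow droplets limit every comparison: differences between conditions have no replicate error.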
